A study of Arabidopsis thaliana with 18 samples.

Results

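The genes described here encode the phenylpropanoid and flavonoid pathway of Arabidopsis thaliana and the proteins that control it. They are 35 of the 33331 genes in the deposited table, taken by locus identifier: 8 genes of general phenylpropanoid metabolism, 5 of the steps from chalcone synthase to flavonol synthase, 6 of the anthocyanin branch, 4 glycosyltransferases acting on flavonols, and 12 regulators. The rule that takes them names loci by their place in the pathway and uses no measured value. The members were nevertheless chosen with earlier results of these data known. RNA came from aerial tissue of plants raised under 12 h light and 12 h dark for 16 days and then released into constant light (LL), and was collected at subjective dawn (LL24) or at subjective dusk (LL36). The 3 lines were sampled at both times with 3 biological replicates per group, 18 samples in 6 groups: wild type (wt) of accession Col-2, the overexpressor AtGRP7-ox, and the loss-of-function line grp7-1 8i. AtGRP7-ox plants overexpress the RNA-binding protein AtGRP7 from the constitutive CaMV 35S promoter, and grp7-1 8i plants combine a T-DNA insertion in AtGRP7 with RNA interference against its paralog AtGRP8, which holds AtGRP8 near its wt level. Each replicate bulked several plants. All groups shared the same entrainment and release. LL24 and LL36 differ both in circadian phase and in hours of constant light, which cannot be told apart. Values were matched to samples for the wt groups, 3 libraries at LL24 and 3 at LL36, and the other lines were not analysed here.

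Phenylalanine is the entry point of the pathway. Phenylalanine ammonia-lyase (PAL) removes its amino group, cinnamate 4-hydroxylase (C4H) hydroxylates the ring, and 4-coumarate:CoA ligase (4CL) activates the acid, giving a CoA ester that feeds both lignin and flavonoids. Chalcone synthase (CHS), chalcone isomerase (CHI), flavanone 3-hydroxylase (F3H) and flavonoid 3'-hydroxylase (F3'H) build dihydroflavonols. Flavonol synthase (FLS1) turns these into flavonols, the ultraviolet-absorbing compounds of leaves, whereas dihydroflavonol reductase (DFR) and leucoanthocyanidin dioxygenase (LDOX) turn them into the red and blue anthocyanins. Sugar and acyl groups are then attached, and a glutathione S-transferase carries anthocyanins to the vacuole. MYB11, MYB12 and MYB111 activate the early and flavonol genes. A complex of a MYB (MYB75 or MYB90), a bHLH protein (TT8, GL3 or EGL3) and the WD40 protein TTG1, called MBW, activates the late anthocyanin genes. The bZIP proteins HY5 and HYH act in light signalling and bind promoters of the pathway.

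HY5-type bZIP proteins recognise sequences with an ACGT core, among them the G-box CACGTG, and the stretches of member genes that hold this motif are shown because the same genes carry the results that follow. The window examined was 300 bases long, 250 before and 50 after the annotated gene start, on RefSeq TAIR10.1. CACGTG stood in 8 of 35 member windows (22.9%), against 7.68% of all 27443 protein-coding genes. Among the 15 enzyme and transport genes from CHS onward it stood in 5, namely CHS, CHI, F3H, DFR and UGT79B1. Each line gives 28 bases, 5′ to 3′ on the strand of the gene, with the motif in capitals.
CHS, chr5:4488232-4488259, plus strand, motif beginning 233 bases before the start: agttaagtatgCACGTGtaagaactggg
F3H, chr3:19024932-19024959, plus strand, 249 before the start: catgtctccgcCACGTGatttctccaca
CHI, chr3:20431542-20431569, minus strand, at base 40 of the gene: aaacgaaagtaCACGTGcttacacatcc
DFR, chr5:17166030-17166057, minus strand, 14 before the start: ccaacgttcccCACGTGcttctccggtt
DFR, chr5:17166007-17166034, minus strand, at base 10 of the gene: cggttggtactCACGTGaccggcagctt
UGT79B1, chr5:21938551-21938578, minus strand, 171 before the start: ccatcaattacCACGTGaagtctggttt
UGT79B1, chr5:21938508-21938535, minus strand, 128 before the start: tacgataccatCACGTGtttgcacttac
MYB12, chr2:19476197-19476224, plus strand, 118 before the start: cttacaccacaCACGTGtcatcatctcc
MYB90, chr1:24763884-24763911, plus strand, 46 before the start: cctatgcccttCACGTGtatatatatac
PAL4, chr3:3203860-3203887, plus strand, 117 before the start: tacatggaagaCACGTGgtgactatatt

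The shorter core ACGT, which every CACGTG contains, stood in 24 of 35 member windows (68.6%) and in 49.9% of all windows. It stood in 10 of 12 regulator windows (83.3%), 6 of 8 general windows (75.0%) and 8 of 15 windows from CHS onward (53.3%). The 6 anthocyanin genes, counted among the last, held it in 2 windows (33.3%). MYB11, MYB12 and MYB111 bind AC-rich elements, for which ACCTACC and ACCAACC were searched on both strands. ACCTACC stood in 3 member windows (8.57%, against 1.38% of all), those of 4CL3, UGT78D3 and UGT89C1, and ACCAACC in 6 (17.1%, against 3.29%), those of PAL1, PAL2, 4CL2, DFR, UGT75C1 and TT8. 4CL3, the ligase most closely tied to flavonoid synthesis, held ACCTACC at 2 places, shown here with capitals marking the element.
4CL3, chr1:24171739-24171766, minus strand, 120 before the start: gaaaatatgaaACCTACCaaaccaaaac
4CL3, chr1:24171687-24171714, minus strand, 68 before the start: ccattccctctACCTACCccaatttctt
Elements recognised by clock proteins were also searched: the evening element AAAATATCT stood in 3 member windows (8.57%, against 2.82% of all), those of FLS1, UGT78D3 and MYBL2 (AT1G71030), and AAAAATCT, the site of CCA1, only in that of PAL1 (2.86%, against 7.88%), on either strand. These matches describe letters in a window and are no measure of binding.

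Transcript levels are given as TPM (transcripts scaled to a fixed total), which are scaled for gene length and sum to nearly the same total in each library. Changes are LL36 minus LL24 on the scale log2(TPM + 0.5), and a gene was tested where its mean passed 1 TPM at either time point. The median change of the 19303 genes tested was 0.21, so each change is printed relative to that median, as a relative change, while its SE and the adjusted p belong to the change itself. A gene was called when its adjusted p (limma, Benjamini-Hochberg over all genes tested) was under 0.05. Libraries of one time point correlated at r = 0.976 to 0.984 across genes and those of different time points at 0.935 to 0.943, between 18523 and 18935 genes passed 1 TPM in a library, and no library stood apart. Leaf markers (RBCS1A, RCA and CA1) summed to 34338 to 36510 TPM at LL24 and 22956 to 25160 TPM at LL36, epidermal markers (ATML1, PDF1 and FDH) to 244 to 303 and 291 to 326 TPM. The 4 floral and 4 seed markers were under 1 TPM in every library, as were 3 of 4 root markers, the exception being PYK10. In bulk tissue fewer cells of a type and less RNA per cell cannot be told apart. The part of the leaf marker difference in the results was not tested.

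The pathway was high at LL24 and low at LL36. Of the 33 members tested, 27 were called lower at LL36, 1 was called higher and 5 were not called. Across all genes tested 52.4% were called, 11.2% lower and 41.2% higher. The median relative change of the tested members was -2.20, and 25 of them were called lower with a relative change below -1, which was true of 4.46% of all genes. The groups of libraries did not overlap, with LL36 lower, for 28 members, against 13.3% of genes, and 63.8% of genes did not overlap in one direction or the other. Among the 193 genes with the lowest changes, the lowest 1%, were 17 members, and 23 stood in the lowest 2%. The 27 lower calls held with the TPM as deposited, after median-of-ratios scaling and after quantile normalization alike (11.1% of all genes), whereas the higher call, for TTG1, did not. UGT78D3 and GL3 stayed under the filter at both time points.

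**Figure D1:**
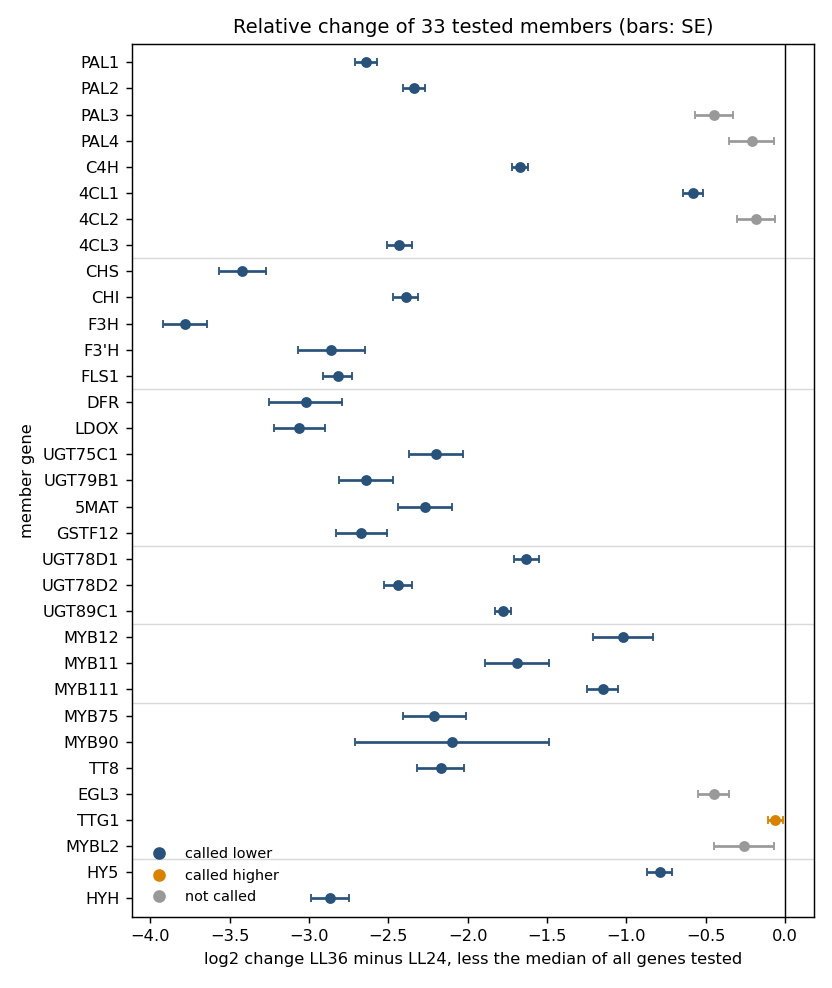
Relative log2 change of the 33 tested members (horizontal axis, LL36 minus LL24 less the median of all genes tested), one gene per line in pathway order, with bars of 1 SE. Every gene from CHS to UGT89C1 lies between -3.78 and -1.63, whereas PAL3, PAL4, 4CL2, EGL3, TTG1 and MYBL2 lie nearest to 0.

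General phenylpropanoid metabolism was called lower for 5 of 8 genes, against 11.2% of all genes tested. PAL1 (AT2G37040), the most abundant PAL gene, measured 237, 213 and 199 TPM in the LL24 replicates and 38.9, 39.9 and 40.5 TPM in the LL36 replicates. The means were 217 ± 19.3 and 39.8 ± 0.795 TPM (SD, n = 3), 5.45-fold apart, with a relative change of -2.64 (SE 0.07, adjusted p = 2.63e-06). All 3 libraries at LL24 stood far above all 3 at LL36. PAL2 (AT3G53260), which with PAL1 provides most PAL activity in leaves, went from 130, 117 and 127 TPM to 26.5, 27.7 and 30.4 TPM, again without overlap (relative change -2.34, SE 0.07, adjusted p = 4.48e-06).

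The minor PAL genes did not share this pattern. PAL3 (AT5G04230) measured 5.49, 5.96 and 5.09 TPM at LL24 and 3.80, 4.94 and 5.15 TPM at LL36, so its groups overlapped (relative change -0.45, adjusted p = 0.147). Rescaling alone, by median of ratios (adjusted p = 0.0337) or by quantiles (adjusted p = 0.0338), brought it past the threshold. PAL4 (AT3G10340) averaged 3.13 ± 0.597 and 3.10 ± 0.22 TPM, with overlapping libraries and an adjusted p of 0.998, and the 95% interval of its change ran from -0.33 to 0.33. Its promoter is one of those with CACGTG listed above. The 4 PAL genes together went from 350 ± 22.8 to 75.7 ± 3.35 TPM, a 4.63-fold difference, and the joint share of the minor genes grew with it: PAL3 took 1.46 to 1.76% of PAL transcripts at LL24 and 5.26 to 6.52% at LL36, and PAL4 0.75 to 1.09% and 3.69 to 4.4%.

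C4H (AT2G30490), a single-copy cytochrome P450 that serves lignin and flavonoids, measured 199, 200 and 194 TPM at LL24 and 70.1, 70.9 and 74.1 TPM at LL36. Its groups were wide apart with little spread within each, and its relative change of -1.67 (SE 0.05, adjusted p = 3.46e-06) was smaller in size than those of PAL1, PAL2 and every tested flavonoid gene but UGT78D1. The ratio of C4H to CHS on the log2 scale was -1.78 ± 0.17 at LL24 and -0.03 ± 0.31 at LL36 (SD, n = 3), and did not overlap between time points.

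The 3 genes for 4CL differed from each other. 4CL3 (AT1G65060) measured 42.3, 41.4 and 47.1 TPM at LL24 and 9.69, 9.05 and 8.25 TPM at LL36, a relative change of -2.43 (SE 0.08, adjusted p = 6.21e-06). 4CL1 (AT1G51680), the main isoform for lignin, measured 73.1, 75.8 and 69.7 TPM and then 52.4, 57.8 and 58.3 TPM. Its libraries did not overlap either, but the relative change was -0.58 (SE 0.06, adjusted p = 0.00384). 4CL2 (AT3G21240) averaged 9.23 ± 1.54 and 9.38 ± 0.409 TPM and was not called (adjusted p = 0.829, 95% interval of the change up to 0.32). 4CL3 therefore supplied 32.7 to 37.9% of the transcripts of these 3 genes at LL24 and 10.8 to 13.5% at LL36, whereas 4CL1 supplied 56.0 to 59.9% and 73.1 to 76.5%.

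**Figure D2:**
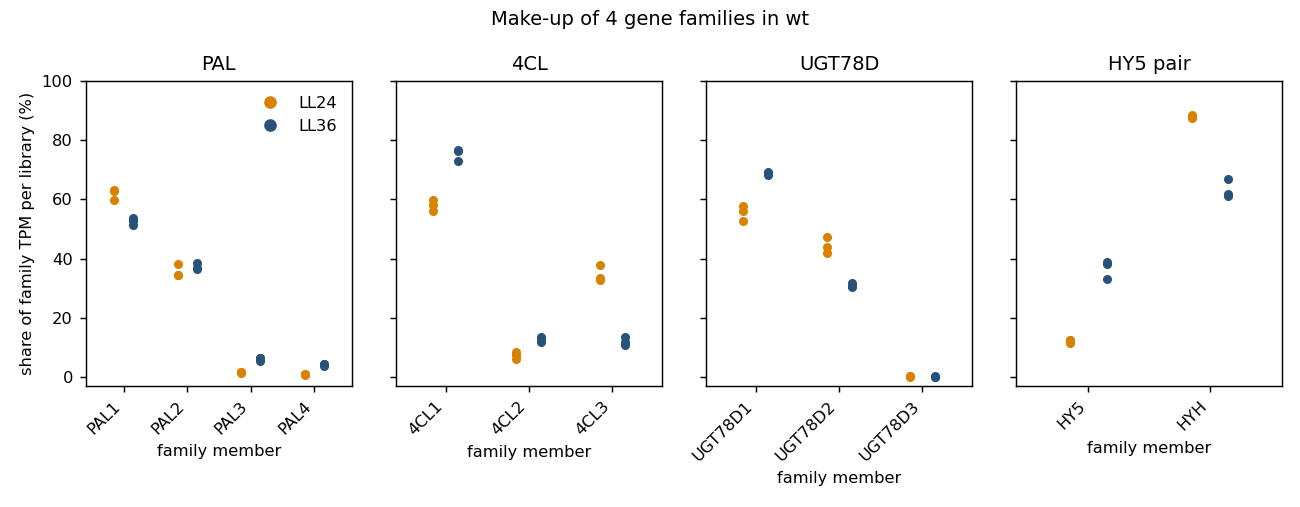
Share of each family's summed TPM (vertical axis, %) contributed by each member in each of 3 libraries at LL24 (orange) and 3 at LL36 (blue), for PAL, 4CL, UGT78D and the HY5 and HYH pair. 4CL3 drops from 32.7 to 37.9% to 10.8 to 13.5%, HYH from 87.6 to 88.5% to 61.0 to 66.8%, and the groups overlap only for PAL2 and the scarce UGT78D3.

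Shifts of this kind were examined for 12 pairs of members as log2 ratios within a library, with a two-sided exact permutation test over the 6 libraries. Such a test cannot go below 0.10 with 3 libraries a group. In 10 pairs the ratios did not overlap and p was 0.1, the smallest possible (adjusted 0.12 over 12 pairs), so none passed 0.05. The pairs were chosen by hand, and the share of other gene pairs without overlap was not computed. Where the changes of 2 members differ widely, their ratio must differ as well, so these ratios only restate the changes of single genes. The ratio 4CL1 to 4CL3 differed by 1.84 between time points, 4CL2 to 4CL3 by 2.25, PAL4 to PAL1 by 2.43 and HY5 to HYH by 2.08. The ratio PAL2 to PAL1 moved only by 0.30. The ratio of FLS1 to DFR, which compares the flavonol with the anthocyanin outlet, was -0.62 ± 0.32 at LL24 and -0.41 ± 0.40 at LL36 (SD, n = 3). It overlapped (exact p = 0.5), as did that of MYB75 to TT8 (exact p = 0.9).

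All 14 tested enzyme and transport genes from CHS onward were called lower, against 11.2% of all genes tested. Their relative changes ran from -3.78 to -1.63, with a median of -2.65. CHS (AT5G13930), the first committed step and the most abundant member, measured 755, 606 and 691 TPM at LL24 and 91.7, 63.1 and 67.9 TPM at LL36. Its means of 684 ± 74.8 and 74.2 ± 15.3 TPM were 9.22-fold apart (relative change -3.42, SE 0.15, adjusted p = 1.94e-05). The lowest LL24 library was several times the highest LL36 library. CHI (AT3G55120), which closes the chalcone ring, measured 96.2, 80.0 and 87.9 TPM and then 19.0, 18.3 and 19.8 TPM (relative change -2.39, SE 0.08, adjusted p = 5.53e-06).

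F3H (AT3G51240) had the lowest change of all members. It measured 172, 141 and 160 TPM at LL24 and 15.6, 10.8 and 12.4 TPM at LL36, 12.2-fold apart in the means (relative change -3.78, SE 0.14, adjusted p = 8.51e-06). A noncoding RNA annotated on the opposite strand, AT3G51238, covers 93.8% of its exon bases. The library kit did not mark strand, so reads of the pair cannot be told apart. The table gives that RNA 5.20, 4.35 and 4.72 TPM at LL24 and 0.358, 0.548 and 0.355 TPM at LL36, far under F3H in every library. That division of the reads is uncertain, and the value of F3H with it.

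F3'H (AT5G07990), the P450 that sets the second hydroxyl of the B ring and so separates quercetin from kaempferol, measured 39.5, 35.7 and 35.3 TPM at LL24 and 7.39, 3.76 and 5.79 TPM at LL36. The LL36 libraries spread widely, yet none reached the LL24 range (relative change -2.86, SE 0.21, adjusted p = 1.77e-04). FLS1 (AT5G08640), the enzyme that commits dihydroflavonols to flavonols, measured 105, 96.8 and 115 TPM and then 18.5, 16.7 and 15.5 TPM (relative change -2.82, SE 0.09, adjusted p = 4.77e-06). CHS, CHI, F3H, F3'H and FLS1 together summed to 1072 ± 105 TPM at LL24 and 129 ± 20.8 TPM at LL36, 8.33-fold apart.

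The 6 genes of the anthocyanin branch summed to 630, 515 and 489 TPM at LL24 and 107, 67.7 and 92.8 TPM at LL36. All 6 were called lower, against 11.2% of all genes tested. DFR (AT5G42800), the first enzyme of the branch, measured 193, 159 and 138 TPM and then 29.2, 16.2 and 24.5 TPM (relative change -3.02, SE 0.23, adjusted p = 1.77e-04). LDOX (AT4G22880), which forms the coloured anthocyanidin, measured 173, 142 and 132 TPM and then 24.2, 16.4 and 20.5 TPM (relative change -3.06, SE 0.16, adjusted p = 3.80e-05). Both stood apart between time points in every library, with replicate 1 high at each time.

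The decorating enzymes of anthocyanins followed. UGT75C1 (AT4G14090), the 5-O-glucosyltransferase, averaged 45.9 ± 7.89 and 11.2 ± 2.26 TPM (relative change -2.20), and UGT79B1 (AT5G54060), which adds xylose, measured 42.7, 34.0 and 31.4 TPM and then 7.45, 4.94 and 6.50 TPM (relative change -2.64). 5MAT (AT3G29590), the malonyltransferase, averaged 15.8 ± 2.40 and 3.43 ± 0.731 TPM (relative change -2.27). GSTF12 (AT5G17220), known as TT19 and needed to move anthocyanins into the vacuole, measured 147, 124 and 132 TPM and then 28.7, 18.6 and 26.3 TPM (relative change -2.67, SE 0.16, adjusted p = 7.69e-05). None of these genes overlapped between time points. Exons of other genes cover 27.1% of the exon bases of UGT75C1 and 9.85% of those of GSTF12. Of these neighbours AT4G14100 measured 25.0 to 26.8 TPM over both times, and AT5G17230, which encodes phytoene synthase, measured 309 to 339 TPM at LL24 and 206 to 219 TPM at LL36.

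Among the tested genes from CHS onward, the flavonol glycosyltransferases UGT78D1 and UGT89C1 had the smallest changes. UGT78D1 (AT1G30530), the flavonol 3-O-rhamnosyltransferase, measured 118, 111 and 126 TPM at LL24 and 48.4, 42.0 and 41.5 TPM at LL36 (relative change -1.63, SE 0.08, adjusted p = 3.92e-05). UGT78D2 (AT5G17050), the 3-O-glucosyltransferase that accepts flavonols and anthocyanidins, measured 106, 87.2 and 91.7 TPM and then 21.3, 18.8 and 19.2 TPM (relative change -2.44, SE 0.09, adjusted p = 9.16e-06). The rhamnosyltransferase made up 52.5 to 57.7% of UGT78D transcripts at LL24 and 68.3 to 69.3% at LL36. UGT78D3 (AT5G17030), an arabinosyltransferase, was at 0.426 TPM or less in all 6 libraries. UGT89C1 (AT1G06000), the flavonol 7-O-rhamnosyltransferase, averaged 52.2 ± 0.394 and 17.2 ± 0.309 TPM (relative change -1.78, SE 0.05), but 99.5% of its 100-base windows are also in AT1G06002, a noncoding RNA on the other strand with 69.1 to 75.9 TPM at LL24 and 28.1 to 29.9 TPM at LL36. How the reads were divided between this pair is uncertain, and the value of UGT89C1 with it. Of the 35 members 30 had no 100-base window in a transcript of another gene.

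**Figure D3:**
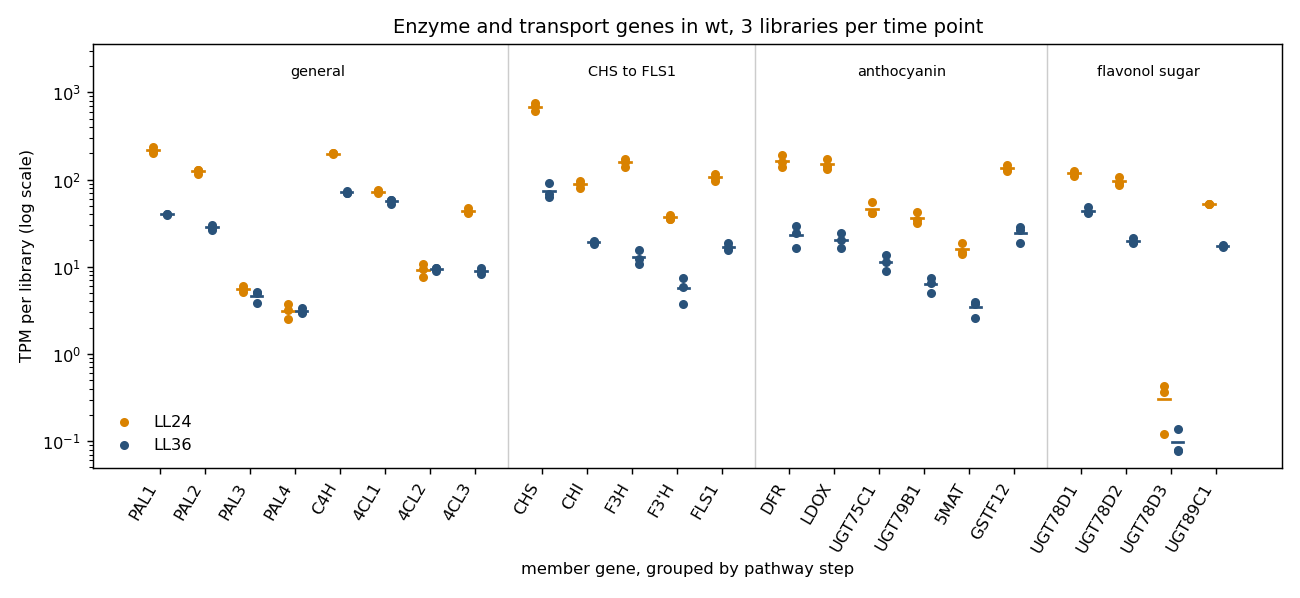
TPM per library (log scale) of the 23 enzyme and transport genes in pathway order, with 3 LL24 libraries in orange and 3 LL36 libraries in blue and a bar at each mean. From CHS to UGT89C1 the colours do not meet except for UGT78D3, which stays at 0.426 TPM or less, and among the general genes they meet for PAL3, PAL4 and 4CL2.

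The same library tended to be the highest or lowest of its time point from gene to gene. For the 6 branch genes together with MYB75, MYB90 and TT8, LL24 replicate 1 was the highest library for 9 of 9 and LL36 replicate 2 the lowest for 9 of 9, against 30.9% and 31.7% of all genes tested. The order of LL24 replicates 2 and 3 was mixed, with replicate 2 lowest for 4 genes and replicate 3 for 5. The trait was not confined to this branch: over the 14 tested genes from CHS onward, which include the 6 branch genes, these libraries were highest for 11 and lowest for 12, and over CHS, CHI, F3H, F3'H and FLS1 for 4 of 5 each. Leaving out MYB90, the 8 others stood at 109 to 120% of their time-point mean in LL24 replicate 1 and at 69.5 to 85.9% in LL36 replicate 2. The 5 general genes called lower stayed between 91.7 and 110% in all 6 libraries. MYB90 spread far more, from 49.6 to 197% at LL24 and from 21.0 to 166% at LL36. These are descriptions of libraries in which several plants were bulked, and with 3 libraries a group no test was made. A list of 13 rapidly induced stress genes summed to 415, 528 and 623 TPM over LL24 replicates 1 to 3. Over the LL36 replicates the list summed to 236, 257 and 478 TPM. The sum was lowest in replicate 1 at both times, but this did not hold for each gene of the list. Replicate 1 was also the lowest library for 41.2% of all genes tested at LL24 and for 36.6% at LL36. A link to the anthocyanin genes was not tested.

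**Figure D4:**
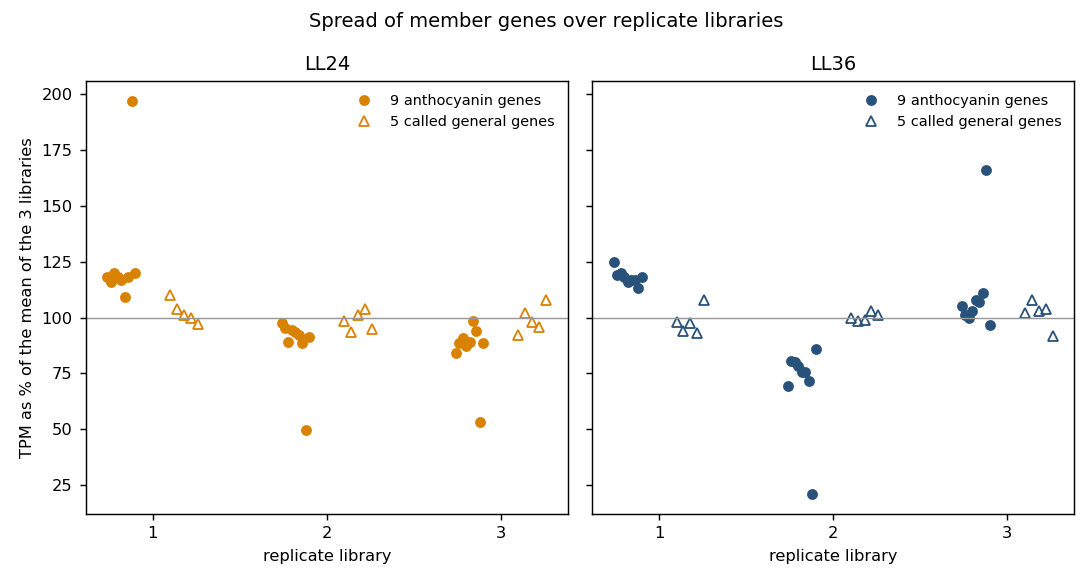
TPM of each gene as a percentage of the mean of its time point (vertical axis) in each replicate library, for 9 anthocyanin genes including MYB75, MYB90 and TT8 (filled circles) and the 5 general genes called lower (open triangles). The circles lie above 100% in replicate 1 at both times and below it in LL36 replicate 2, and the circles farthest from 100% are MYB90.

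Of the 12 regulators 11 were tested, 8 were called lower and 1 higher, beside 11.2% and 41.2% of all genes tested. The 8 include MYB11, MYB12 and MYB90, whose calls have limits given below. The flavonol MYBs were all lower at LL36. MYB111 (AT5G49330), the most abundant of them, measured 11.7, 10.6 and 13.5 TPM at LL24 and 6.08, 5.72 and 6.07 TPM at LL36 (relative change -1.15, SE 0.10, adjusted p = 4.92e-04). MYB11 (AT3G62610) measured 1.39, 1.02 and 1.43 TPM and then 0.144, 0.118 and 0.145 TPM (relative change -1.69, adjusted p = 0.00144), and MYB12 (AT2G47460) averaged 1.04 ± 0.162 and 0.384 ± 0.0733 TPM (relative change -1.02, adjusted p = 0.0119). Both passed the filter only through LL24, so their inclusion depended on the time point at which they were high, and the 0.5 added to TPM shrinks their change. The 3 MYBs summed to 14.3 ± 1.61 and 6.48 ± 0.28 TPM, 2.20-fold apart, beside 8.33-fold for the 5 genes from CHS to FLS1.

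The MBW components divided. MYB75 (AT1G56650), known as PAP1, the main anthocyanin MYB of seedlings, measured 48.4, 36.4 and 38.7 TPM at LL24 and 11.7, 7.20 and 11.2 TPM at LL36 (relative change -2.21, SE 0.20, adjusted p = 4.26e-04). TT8 (AT4G09820), its bHLH partner, measured 6.56, 4.99 and 4.82 TPM and then 1.2, 0.879 and 0.987 TPM (relative change -2.17, SE 0.15, adjusted p = 1.37e-04). Both were without overlap. MYB90 (AT1G66390), known as PAP2, measured 11.1, 2.79 and 3.00 TPM and then 1.16, 0.215 and 1.70 TPM. A single LL24 library supplied most of its mean, and the call (relative change -2.10, SE 0.61, adjusted p = 0.0377) was lost when LL24 replicate 1, LL24 replicate 3, LL36 replicate 1 or LL36 replicate 2 was left out. Before the median was subtracted, its change was -1.89 with all libraries and -1.30 without LL24 replicate 1.

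The partners shared with trichome and root hair patterning behaved otherwise. EGL3 (AT1G63650) measured 2.39, 2.73 and 2.52 TPM at LL24 and 1.97, 2.16 and 2.13 TPM at LL36, not overlapping but not called (relative change -0.45, adjusted p = 0.0847). It was called lower after median-of-ratios scaling, quantile normalization, removal of the 100 most abundant genes, or a fit without the mean-variance trend. GL3 (AT5G41315) lay between 0.353 and 0.489 TPM in all libraries. TTG1 (AT5G24520) averaged 23.8 ± 0.237 TPM at LL24 and 26.4 ± 0.419 TPM at LL36, with all LL36 libraries above all LL24 libraries, and was called higher (change 0.15, adjusted p = 0.0364). Its relative change was -0.06, and its change turned to -0.059 after median-of-ratios scaling and -0.0156 after quantile normalization, where it was not called. MYBL2, an R3-MYB that inhibits the complex, averaged 25.1 ± 4.47 and 24.5 ± 5.21 TPM, overlapped in part and was not called (adjusted p = 0.859).

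The light-signalling pair was unequal. HYH (AT3G17609) measured 119, 122 and 131 TPM at LL24 and 16.3, 19.0 and 22.9 TPM at LL36, without overlap (relative change -2.87, SE 0.12, adjusted p = 1.52e-05). HY5 (AT5G11260) measured 16.8, 15.8 and 18.4 TPM and then 10.4, 11.8 and 11.4 TPM (relative change -0.79, SE 0.08, adjusted p = 0.00154). HYH thus made up 87.6 to 88.5% of the transcripts of the pair at LL24 and 61.0 to 66.8% at LL36. With TPM scaled for length, HYH was the most abundant of the 12 regulators at LL24, whereas at LL36 TTG1 and MYBL2 had higher means.

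**Figure D5:**
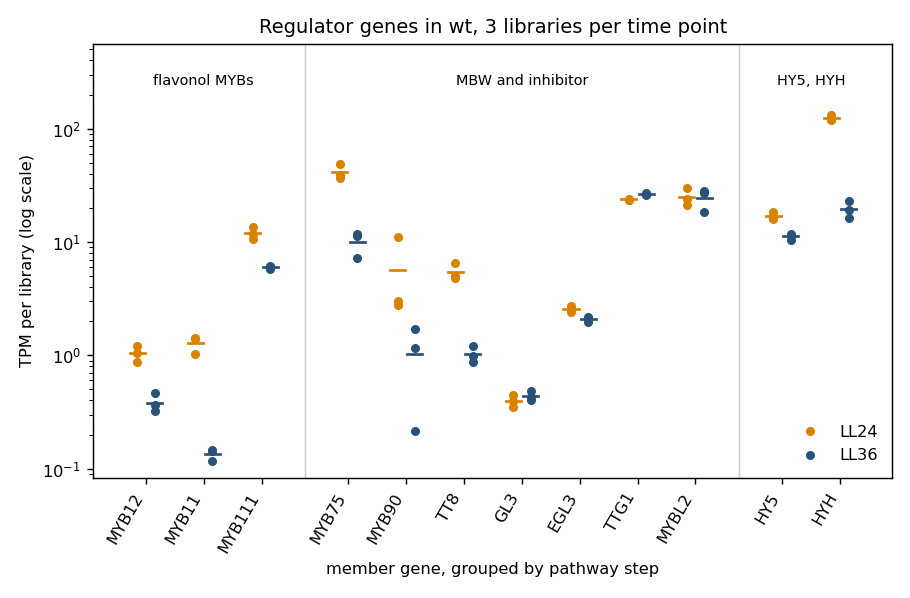
TPM per library (log scale) of the 12 regulators, with 3 LL24 libraries in orange, 3 LL36 libraries in blue and a bar at each mean. HYH, MYB75, TT8 and MYB11 show wide gaps between colours, MYB90 a wide scatter within each, and GL3 and MYBL2 overlap.

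Genes next to the pathway included calls in both directions. These lists and those of further flavonoid genes and regulators were chosen with earlier results of these data known. Of 20 shikimate and phenylalanine genes, which supply the precursor, 7 were called lower and 6 higher (median relative change -0.25), beside 11.2% and 41.2% of all genes, and only 3 were higher after median-of-ratios scaling. Among them were ADT4, lower at 27.0 ± 0.925 and 17.7 ± 1.60 TPM, and DHS1, the entry enzyme of the shikimate pathway, higher at 35.9 ± 1.73 and 73.2 ± 3.47 TPM. CM1 and CS were also called lower, and ADT2 and CM2 higher. Of 18 genes of lignin and sinapate synthesis 9 were called lower and 3 higher (median -0.44). The 3 with the lowest changes were UGT84A2, CAD4 and CCR2. UGT84A2, a sinapate glucosyltransferase, averaged 41.2 ± 2.43 and 13.6 ± 0.892 TPM (relative change -1.77). CAD4, a cinnamyl alcohol dehydrogenase, averaged 118 ± 9.09 and 46.4 ± 5.07 TPM (relative change -1.55). The call of cinnamoyl-CoA reductase CCR2 was lost without LL36 replicate 2 (adjusted p = 0.0514). The other listed cinnamoyl-CoA reductase gene, CCR1, averaged 91.2 ± 3.23 and 39.9 ± 4.84 TPM (relative change -1.40, SE 0.09, adjusted p = 1.46e-04). UGT72E1, REF1 and ATR1 were called higher, with relative changes of 0.67, 0.37 and 0.30.

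Further flavonoid genes outside the 35 included some of the lowest changes. Of 11 listed, 8 were tested, 4 were called lower (11.2% of all genes tested were) and the others were not called. One of the 4, AHA10, passed the filter only through LL24, where it was high (means 1.23 and 0.7 TPM). CHIL, a noncatalytic chalcone isomerase-like protein that promotes CHS activity, measured 247, 205 and 239 TPM at LL24 and 23.6, 21.3 and 22.3 TPM at LL36, 10.3-fold apart (relative change -3.54, SE 0.08, adjusted p = 1.44e-06). SCPL10, a serine carboxypeptidase-like acyltransferase, averaged 160 ± 5.58 and 21.8 ± 2.07 TPM (relative change -3.06), and RHM1, which makes the UDP-rhamnose used by the rhamnosyltransferases, 180 ± 5.23 and 48.3 ± 4.68 TPM (relative change -2.10). Of 23 further regulators 19 were tested, 8 were called lower and 3 higher. The 3 with the lowest changes were KFB39, an F-box protein that targets PAL for degradation, at 3.74 ± 1.47 and 0.909 ± 0.552 TPM, TTG2 at 6.39 ± 0.443 and 2.57 ± 0.447 TPM, and SPA4, a partner of COP1 in repressing light responses, at 20.7 ± 1.44 and 10.1 ± 0.514 TPM. KFB39 passed the filter only through LL24, where it was high. The 3 regulators called higher, named here after their values were seen, were the related F-box genes KFB01, KFB20 and KFB-CHS. Higher calls made up 41.2% of all genes tested. The relative changes of the 3 were 0.4, 0.78 and 0.62, and none of them was called under all 3 scalings. A further F-box gene, KFB50, was not called (adjusted p = 0.0547). The F-box genes of this list therefore did not share a direction with the TPM as deposited, and their higher calls depended on the scaling.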

How the data were processed

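Values were TPM (transcript abundance scaled to a fixed total) per gene as deposited by the authors. They had sequenced polyadenylated RNA with an unstranded kit, aligned one mate of each read pair to an Arabidopsis transcript reference on TAIR10 with STAR 2.5.2a, quantified it with Salmon 0.8.2, summarised transcripts per gene with tximport and left out ribosomal and organellar genes. Of 18 columns, 6 matched the wt labels, and 12 matched no label and were not used, so the lines were not compared. TPM keep no depth, so no counting error is given, and precision rests on 3 biological replicates per group. The test was limma 3.58.1 (R 4.3.3), with a mean-variance trend, on log2(TPM + 0.5) for genes with a group mean above 1 TPM, two-sided, checked on simulated data. Replicate numbers do not pair the samples in the labels. Neighbouring exons, shared windows and promoter motifs were read from RefSeq TAIR10.1, a different release from the authors' annotation. Alternatives were other pseudocounts (0.1 and 1), filters (none, or 5 TPM), scalings, no trend, a replicate block and leaving out each library. All 35 members are named, and of each further list up to 3 genes per direction called under all 3 scalings, by size of change. AHA10, CCR1, KFB01, KFB20, KFB-CHS and KFB50 were named apart from that rule. The members and lists were chosen with earlier results of these data known.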

Additional observations from a re-analysis of the deposited data

How the results depend on the processing

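Of the 33 tested members 26 kept their direction and call in every alternative in which they were tested. So did 17 of the 18 genes taken from the further lists by size of change. Those 18 were picked as called under all 3 scalings, so median-of-ratios scaling and quantile normalization could not change their call. The count leaves out AHA10, CCR1, KFB01, KFB20, KFB-CHS and KFB50, of which KFB01, KFB20 and KFB-CHS were not called under all 3 scalings. PAL4, EGL3, MYB11, MYB12 and KFB39 were not tested with the filter at 5 TPM, nor MYB12 without LL24 replicate 1, because they fell under the filter there. Members called lower numbered 25 to 29 over all alternatives. The count of all genes called, 10107 as deposited, was 6602 after median-of-ratios scaling and 6632 after quantile normalization, and 7741 to 9571 when a library was left out. Genes called lower rose to 3499 with median-of-ratios scaling, and those called higher went to 3103, to 3607 with quantile normalization and to 4883 without the 100 most abundant genes, as these settings bring the median change from 0.21 to 0.01, 0.04 and 0.11. The limma count of members called higher, 1, became 0 with those 3 settings and with the replicate block, and was 0 to 1 with a library left out. Shikimate genes called higher became 3 with median-of-ratios scaling. The further regulators called higher became 0 with it, 1 with quantile normalization and 1 to 4 with a library left out, and the further flavonoid genes called higher were 0 to 1 there.

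PAL4, near 0 as reported, was -0.000927 with 1 TPM added, -0.18 with either rescaling, -0.0989 without the most abundant genes and -0.13 to 0.11 with a library left out. 4CL2 was -0.17, -0.17 and -0.0735 under those 3 settings and -0.0906 to 0.14 with a library left out. TTG1 was -0.059 after median-of-ratios scaling and -0.0156 after quantile normalization. MYBL2 ranged from -0.15 to 0.14 with a library left out, among them 0.0897 without LL24 replicate 3. MYB90 lost its call without the filter and with 4 of the 6 libraries left out in turn. Same-numbered libraries deviated together at r = 0.128, 0.148 and 0.0341, and differently numbered ones at r = -0.133 to 0.0089. The main test used no replicate block, and with the block 9947 genes were called. Where 1 library was left out, a group kept 2 libraries. The cause of these differences was not tested.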
